A study of Mus musculus with 14 samples.

Results

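The genes described here carry the nitric oxide and natriuretic peptide signal for relaxation through cyclic GMP (cGMP). They are 9 of the 40481 genes in the bulk count table, chosen by name as members of the pathway: Gucy1a1, Gucy1b1, Prkg1, Pde5a, Pde1a, Pde3a, Pde4d, Npr1 and Npr2. All 9 were among the 20886 genes that passed the filter on low counts. The study asked what loss of Carmn, a long noncoding RNA of smooth muscle, does to gut muscle. Muscularis, the muscle coat of the gut wall, was taken from C57BL/6 mice. Bulk RNA was sequenced in 12 libraries, 3 in each of 4 groups: colon and jejunum of mice labelled Carmn iKO, and colon and jejunum of mice labelled WT mTmG. The mTmG allele is a fluorescent Cre reporter, and the labels state it for the WT groups alone. A further pair of libraries, 1 of each genotype, held nuclei of the colon muscularis. The labels give no Cre driver, inducing agent, age or sex, and do not say how many animals a library holds.

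Nitric oxide from nerves binds soluble guanylyl cyclase, a pair of an alpha subunit (Gucy1a1) and a beta subunit (Gucy1b1), which makes cGMP. Natriuretic peptides make it through the membrane receptors Npr1 and Npr2. Cyclic GMP switches on protein kinase G (Prkg1), which lowers calcium and the calcium sensitivity of the myosin filaments, so the muscle relaxes. Phosphodiesterases end the signal: Pde5a is specific for cGMP, Pde1a is driven by calcium and calmodulin, Pde3a is slowed by cGMP while it breaks down cAMP, and Pde4d is specific for cAMP. In the gut wall the enteric motor neurons are the main source of nitric oxide. Interstitial cells of Cajal and PDGFRA-positive interstitial cells lie between nerve and muscle and pass the signal on.

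Before the results, 3 facts about the libraries. Total counts ran from 24254905 to 44315104 per bulk library. Carmn itself averaged 494 ± 209 normalised CPM (counts scaled to a common library size) in colon libraries labelled KO against 258 ± 90.2 in WT colon (SD, n = 3 each), and these groups overlapped. In jejunum it averaged 908 ± 89.3 against 257 ± 62.0 (SD, n = 3 each), with no overlap. These bulk counts go against the KO label, so KO is used below only as a label. Which exons the deletion removes is not stated in the labels. In the nuclei Carmn was lower in the library labelled KO, at 2.10 against 6.57 unique molecular identifiers (UMIs) per 10000. The colon library labelled KO t4 (Myh11 at 5711 CPM against 12303 and 12294 in its group) and the jejunum library labelled KO m1 stood apart from their groups. Nothing in the labels says that libraries of a group came from separate animals, so p-values measure only the spread between these libraries.

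The alpha and beta subunit genes are neighbours on the minus strand of chromosome 3 (GRCm38): Gucy1a1 at chr3:82092427-82145789 and Gucy1b1 at chr3:82032006-82074689. A gap of 17737 bases with 0 annotated genes lies between them. Pde5a (chr3:122728947-122859374, plus strand) and Npr1 (chr3:90450591-90465866, minus strand) are on the same chromosome. Prkg1 spans 1200.545 kb of chromosome 19 and Pde4d 1503.514 kb of chromosome 13. Exons of Pde5a, Pde3a, Npr1 and Npr2 overlap an annotated gene on the other strand (4930447N08Rik, Gm28523, Gm16048 and Gm12473). Mir7010 lies in an exon of Gucy1a1. No source used here states whether counting used strand, and without it reads of these pairs cannot be told apart.

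Promoter windows of both cyclase subunits and of Pde5a are printed because the subunits work as a pair from neighbouring genes and Pde5a had the largest fold change of the 9 in both tissues. Each holds 300 bases, 250 before and 50 after a RefSeq start site (GRCm38.p6), 5′ to 3′ on the strand of the gene. Capitals mark a GC box (GGGCGG or its reverse complement CCGCCC) or a CCAAT box (CCAAT or its reverse complement ATTGG).
Gucy1a1, chr3:82145601-82145900, minus strand: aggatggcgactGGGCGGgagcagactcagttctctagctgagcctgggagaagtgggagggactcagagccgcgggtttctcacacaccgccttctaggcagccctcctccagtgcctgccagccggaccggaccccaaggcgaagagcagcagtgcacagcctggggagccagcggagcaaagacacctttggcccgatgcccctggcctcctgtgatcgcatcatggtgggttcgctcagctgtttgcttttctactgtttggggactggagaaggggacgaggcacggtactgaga
Gucy1b1, chr3:82074662-82074961, minus strand: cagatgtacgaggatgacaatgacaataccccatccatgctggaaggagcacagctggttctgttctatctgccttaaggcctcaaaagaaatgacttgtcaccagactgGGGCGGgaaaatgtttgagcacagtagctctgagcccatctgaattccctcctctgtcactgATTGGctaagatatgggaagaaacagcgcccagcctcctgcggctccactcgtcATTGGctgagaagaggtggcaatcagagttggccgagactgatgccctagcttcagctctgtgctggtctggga
Pde5a, chr3:122728908-122729207, plus strand: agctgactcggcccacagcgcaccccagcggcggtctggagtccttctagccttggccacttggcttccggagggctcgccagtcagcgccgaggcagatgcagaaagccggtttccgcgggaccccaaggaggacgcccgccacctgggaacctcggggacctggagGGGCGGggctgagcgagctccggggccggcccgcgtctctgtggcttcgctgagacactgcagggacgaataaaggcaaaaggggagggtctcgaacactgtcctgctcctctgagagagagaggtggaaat
The printed Gucy1a1 window and the Pde5a window each hold 1 GC box and no CCAAT box. Gucy1a1 has another RefSeq window, chr3:82145024-82145323, not printed here, which holds neither box. Gucy1b1 holds 1 GC box and 2 CCAAT boxes. Among all 32851 windows of this length, 35.7% hold a GC box and 37.4% a CCAAT box on either strand. A CArG box, the serum response factor element, was in none of the 13 windows of the 8 genes with an entry, and 1.63% of all windows hold one. These letters are a description of the windows and say nothing of which factor binds.

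Soluble guanylyl cyclase was lower in the libraries labelled KO of both tissues, without passing the test. Gucy1b1 was 66.2, 60.6 and 60.5 CPM in the WT colon libraries and 48.3, 36.2 and 31.9 CPM in those labelled KO. No library labelled KO reached the lowest WT library. The log2 difference, labelled KO minus WT, was -0.69 ± 0.19 (SE; edgeR quasi-likelihood adjusted p = 0.149). In jejunum Gucy1b1 was 135.9, 138.1 and 124.9 CPM in WT and 66.8, 102.5 and 83.0 CPM in libraries labelled KO. These groups did not overlap either, and the log2 difference was -0.66 ± 0.19 (SE; edgeR adjusted p = 0.179). DESeq2, the other count test run, gave Gucy1b1 adjusted p = 0.0336 in colon and 0.0479 in jejunum.

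The alpha subunit had more spread. Gucy1a1 was 105.1, 100.2 and 123.5 CPM in WT colon and 89.6, 53.6 and 50.5 CPM in colon labelled KO. All 3 libraries labelled KO lay below WT, and the log2 difference was -0.76 ± 0.30 (SE; edgeR adjusted p = 0.273). In jejunum it was 160.9, 152.2 and 132.5 CPM in WT and 57.3, 134.3 and 118.6 CPM in libraries labelled KO. The t1 library lay inside the WT range, and m1 was far below the others. The log2 difference of Gucy1a1 was -0.52 ± 0.30 (SE; adjusted p = 0.483), and -0.26 (adjusted p = 0.809) without m1.

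The balance of the subunits differed more between tissues than between labels in these means. The log2 ratio of Gucy1a1 to Gucy1b1 counts was 0.81 ± 0.20 in WT colon and 0.71 ± 0.17 in colon labelled KO (SD, n = 3 each; exact permutation p = 0.5, two-sided). In jejunum it was 0.16 ± 0.08 in WT and 0.23 ± 0.39 in libraries labelled KO (SD, n = 3 each; exact permutation p = 0.9). Colon exceeded jejunum by 0.65 in WT and by 0.48 in libraries labelled KO, with exact permutation p = 0.1 in each. That is the smallest p that 3 libraries against 3 allow.

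Prkg1, the kinase that carries the signal to the contractile machinery, was 79.3, 81.3 and 104.1 CPM in WT colon. In colon labelled KO it was 78.0, 29.1 and 54.9 CPM. The groups did not overlap, but the m1 library lay just under the lowest WT library. The log2 difference of Prkg1 was -0.71 ± 0.31 (SE; edgeR adjusted p = 0.320), and -0.41 (adjusted p = 0.469) without t4. In jejunum Prkg1 was 99.6, 117.1 and 116.0 CPM in WT against 58.5, 95.7 and 91.0 CPM in libraries labelled KO. The groups did not overlap, and the log2 difference was -0.44 ± 0.31 (SE; adjusted p = 0.572).

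Pde5a, the cGMP-specific phosphodiesterase and target of sildenafil, had the largest fold change of the 9 genes in each tissue. It was 513.2, 535.3 and 629.5 CPM in WT colon and 374.7, 164.2 and 242.6 CPM in colon labelled KO. In jejunum it was 433.8, 411.4 and 397.8 CPM in WT and 165.6, 281.8 and 202.9 CPM in libraries labelled KO. All libraries labelled KO lay below all WT libraries in both tissues. The log2 difference was -1.10 ± 0.29 in colon (SE; edgeR adjusted p = 0.131) and -0.93 ± 0.29 in jejunum (SE; adjusted p = 0.197). DESeq2 put Pde5a past the threshold in colon (adjusted p = 0.0110) and in jejunum (0.0484). Without colon m1, the highest of the colon libraries labelled KO, the edgeR adjusted p of Pde5a in colon was 0.0452 with a log2 difference of -1.46. Leaving out any other single library did not bring Pde5a past the threshold in colon. Over 19 alternative fits the log2 difference in colon ran from -1.46 to -0.86, so the fit without m1 is the end farthest from 0.

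**Figure D1:**
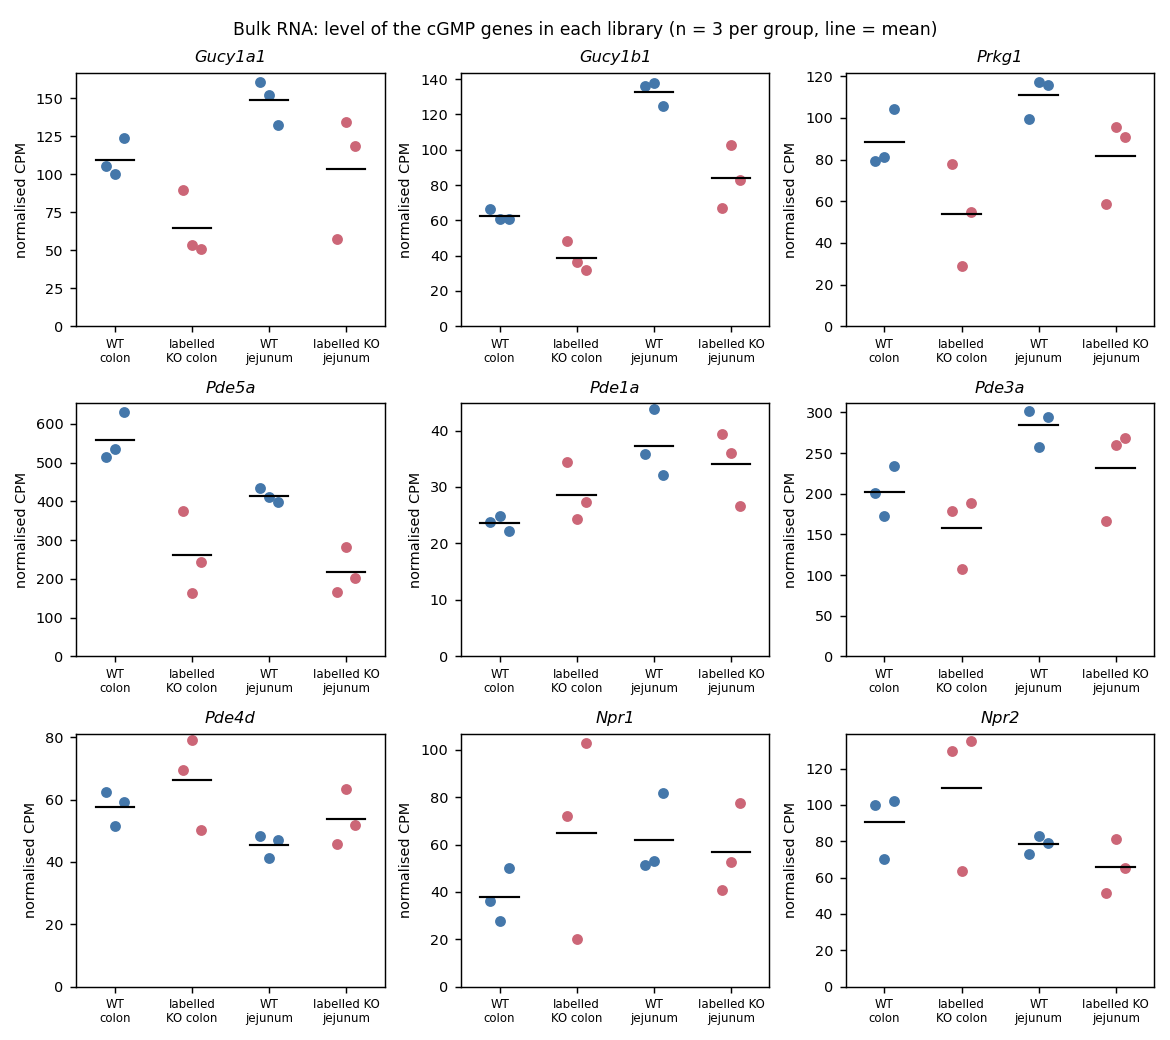
Normalised CPM (vertical axis, linear, from 0) of the 9 genes in each of the 12 bulk libraries, by group (horizontal axis); points are libraries and lines are group means. Pde5a libraries labelled KO sit below all WT libraries of their tissue, and Gucy1b1 is lower in colon than in jejunum for either label.

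The other 3 phosphodiesterases overlapped between labels in both tissues. Pde3a was 172.4 to 234.2 CPM in WT colon and 107.6 to 188.7 CPM in colon labelled KO, a log2 difference of -0.35 ± 0.25 (SE; edgeR adjusted p = 0.558). In jejunum the log2 difference of Pde3a was -0.30 ± 0.25 (SE; adjusted p = 0.647). Pde1a had a log2 difference of 0.28 ± 0.19 in colon (SE; adjusted p = 0.562) and of -0.13 ± 0.19 in jejunum (SE; adjusted p = 0.816). Pde4d, which acts on cAMP alone, was the one gene with a higher mean in libraries labelled KO of both tissues, by 0.20 ± 0.19 (SE; adjusted p = 0.683) and 0.24 ± 0.19 (SE; adjusted p = 0.626).

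The receptors of the natriuretic peptides had wide spread. Npr1 was 36.1, 27.6 and 49.9 CPM in WT colon and 72.1, 19.9 and 102.8 CPM in colon labelled KO. The lowest of all 6 libraries was t4, labelled KO. The log2 difference was 0.78 ± 0.49 (SE; edgeR adjusted p = 0.504), and 1.21 (adjusted p = 0.159) without t4. Npr2 was 70.4 to 101.9 CPM in WT colon and 63.5 to 135.1 CPM in colon labelled KO, a log2 difference of 0.27 ± 0.28 (SE; adjusted p = 0.715). In jejunum both receptors overlapped between labels, with log2 differences of -0.12 ± 0.48 for Npr1 (SE; adjusted p = 0.942) and -0.25 ± 0.28 for Npr2 (SE; adjusted p = 0.741). Blood endothelial markers, of cells that hold Npr1, were higher in libraries labelled KO for 6 of 6 genes in each tissue (0 past the test). Their sums were 137 to 194 CPM against 123 to 182 CPM in colon, and 148 to 240 CPM against 69.2 to 153 CPM in jejunum. In the colon nuclei, blood endothelial-like nuclei held 3.03% of Npr1 UMIs in WT and 7.50% labelled KO, and mesothelial-like nuclei 19.9% and 30.3%. Of all UMIs, blood endothelial-like nuclei held 0.551% in WT and 1.75% labelled KO, and mesothelial-like nuclei 4.30% and 11.99%. Cluster 12, which was left unnamed, held 31.2% of Npr1 UMIs in WT and 23.4% labelled KO. Unnamed cluster 11 held 16.9% and 10.9%. Smooth muscle-like nuclei held 12.6% and 12.2% of Npr1 UMIs, with 24.0% and 23.1% of all UMIs. PDGFRA fibroblast-like nuclei held 1.30% and 7.81%, with 1.21% and 7.93% of all UMIs. Mesothelial markers were lower for 4 of 5 genes in each tissue (0 past the test), with medians of -0.71 in colon and -0.54 in jejunum. Their sums were 128 to 254 CPM against 159 to 424 CPM in colon and 421 to 1112 CPM against 782 to 1579 CPM in jejunum. The part of these cells in the Npr1 values was not tested.

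Counted together, 0 of 9 genes passed edgeR's adjusted p of 0.05 in colon, where 0.388% of all genes tested did. At an unadjusted p under 0.05 there were 4 of 9, against 14.5% of all genes. The same 4 (Gucy1a1, Gucy1b1, Prkg1 and Pde5a) did not overlap between labels and were lower, against 10.4% of all genes. The median log2 difference over the 9 was -0.35, beside 0.0043 over all genes tested. In jejunum 0 of 9 passed, where 0.215% of all genes did, and 2 of 9 (Gucy1b1 and Pde5a) had an unadjusted p under 0.05, against 13.2%. There 3 of 9 did not overlap and were lower, against 11.2%, and the median was -0.30, beside 0.02 over all genes. DESeq2 called Pde5a and Gucy1b1 in each tissue, and it called 5.01% of all genes it adjusted in colon and 3.95% in jejunum. Limma voom called none of the 9, against 0.455% and 0.364% of all genes. The colon change minus the jejunum change passed for 0 of 9 genes and 0% of all genes by edgeR, and for none of the 9 and 0.178% of all genes by DESeq2. At an unadjusted p under 0.05 it did for 0 of 9, against 4.16% of all genes. It was -0.17 ± 0.40 for Pde5a (SE; adjusted p = 0.966) and -0.03 ± 0.27 for Gucy1b1 (SE; adjusted p = 0.993).

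**Figure D2:**
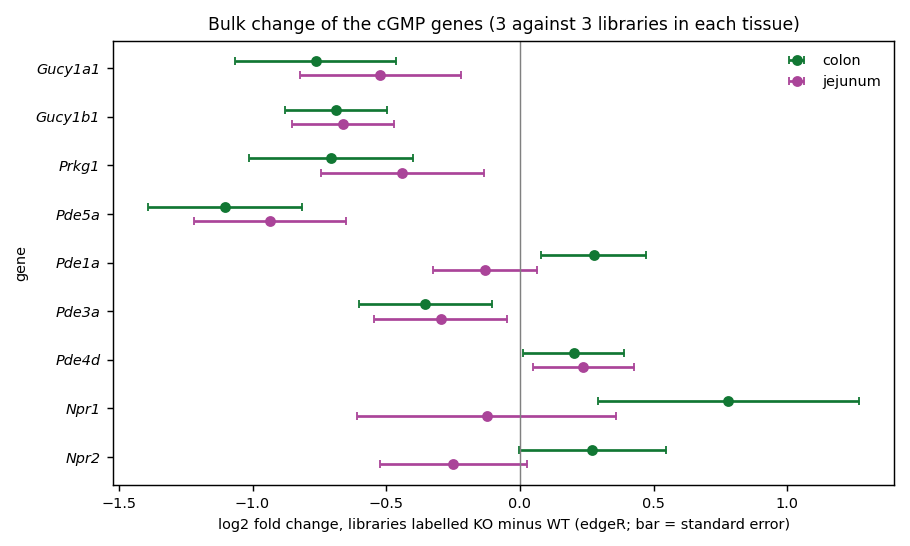
Log2 fold change of libraries labelled KO minus WT (horizontal axis) for the 9 genes (vertical axis) in colon and jejunum; points are edgeR estimates and bars are standard errors. Pde5a lies farthest below 0 in both tissues, at -1.10 and -0.93, and Npr1 has the widest bars.

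Markers of cell types differed between the labels as well. All 8 smooth muscle markers were lower in colon labelled KO, 0 past the test, with a median change of -0.72. Their summed level was 28738 to 37900 CPM there and 41728 to 62059 CPM in WT colon. In jejunum 6 of the 8 were higher, with sums of 39617 to 75537 CPM against 35503 to 38859 CPM in WT. The part of muscle content in the colon values of the 9 genes was not tested, and fewer cells of a type cannot be told apart from less RNA per cell in bulk tissue. Set against Myh11, the smooth muscle myosin heavy chain, the log2 ratio of Pde5a counts was lower by 0.45 in colon and by 1.10 in jejunum (3 libraries against 3; exact permutation p = 0.1 each, the smallest possible). The ratio of Gucy1b1 to Myh11 counts differed by 0.02 in colon (exact permutation p = 1) and by -0.81 in jejunum (exact permutation p = 0.1).

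The interstitial and mural lists showed no call. Markers of P2ry1 interstitial cells had 2 of 3 lower in each tissue (median -0.10 in colon and -0.05 in jejunum), with sums of 201 to 330 CPM in colon labelled KO and 209 to 288 CPM in WT colon. In jejunum those sums were 344 to 565 CPM against 323 to 342 CPM. Markers of interstitial cells of Cajal had 4 of 6 lower in each tissue, with sums of 266 to 498 CPM against 470 to 568 CPM in colon and 494 to 848 CPM against 718 to 910 CPM in jejunum. Of 6 mural markers 5 were higher in each tissue, while their sum in jejunum was 2170 to 3504 CPM in libraries labelled KO and 4095 to 5487 CPM in WT. Macrophage markers were higher in 6 of 6 in jejunum, at sums of 320 to 780 CPM against 110 to 225 CPM. Of 4 skeletal muscle markers tested 3 were lower in colon, 1 of them past the test (median -1.11), with sums of 27.0 to 36.6 CPM against 67.0 to 87.5 CPM. All 4 adipocyte markers were lower in each tissue, 0 past the test, with medians of -1.84 in colon and -1.47 in jejunum. Adipocyte sums were 0.278 to 50.3 CPM against 29.0 to 57.1 CPM in colon. The part of these cells in the 9 genes' values was not tested.

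**Figure D3:**
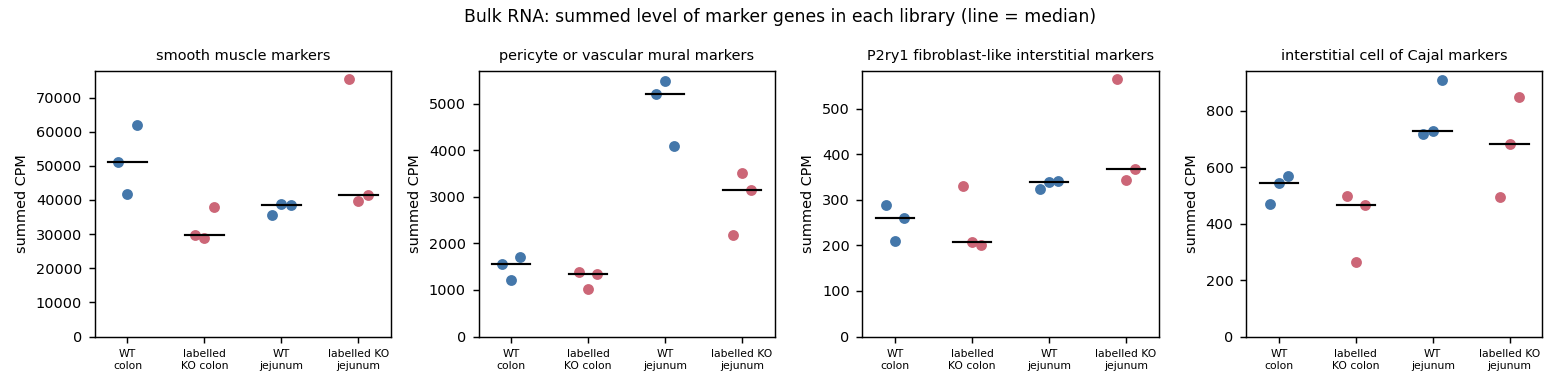
Summed CPM (vertical axis, linear, from 0) of 4 marker lists in each bulk library by group (horizontal axis); points are libraries and lines are medians. Smooth muscle markers are lower in colon labelled KO and higher in jejunum labelled KO than in WT, while the mural sum is lower in jejunum labelled KO.

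Between tissues, Gucy1b1 was the 1 of 9 genes that passed. It was lower in WT colon than in WT jejunum by 1.09 ± 0.19 on the log2 scale (SE; edgeR adjusted p = 0.0195), and lower in colon labelled KO than in jejunum labelled KO by 1.12 ± 0.19 (SE; adjusted p = 0.0229). Of all genes tested, 1.56% passed in WT (0.862% lower in colon) and 1.29% in libraries labelled KO (0.833% lower). The adjusted p of Gucy1b1 in WT ranged from 0.00545 to 0.0702 when 1 library was left out: it was over 0.05 without WT colon t1 or t6, or WT jejunum t1 or t6. With libraries labelled KO it ranged from 0.00809 to 0.0808, and was over 0.05 without colon t6, jejunum t1 or jejunum t4. In WT, 5 of 9 genes were lower in colon without overlap (Gucy1a1, Gucy1b1, Pde1a, Pde3a and Npr1), against 11.7% of all genes. Pde5a and Pde4d were higher in colon without overlap, against 11.2%. Pde1a differed by -0.65 ± 0.20 (SE; edgeR adjusted p = 0.148; DESeq2 adjusted p = 0.0474).

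Per kilobase of exon, Pde5a was the most abundant of the 9 genes in each group. In WT colon it was at 56.9 ± 6.28 CPM per kb (SD, n = 3), ahead of Npr2 at 19.4 ± 3.79, and the ranges did not overlap. Gucy1b1 (15.9 ± 0.82), Pde3a (15.9 ± 2.43) and Gucy1a1 (15.7 ± 1.77) followed within each other's spread. Prkg1 (8.13 ± 1.27) and Npr1 (7.91 ± 2.36) did not differ beyond their spread either, and Pde4d and Pde1a came last at 4.80 ± 0.47 and 3.94 ± 0.22. In WT jejunum Gucy1b1 was the next after Pde5a, at 33.9 ± 1.80 against 42.1 ± 1.85 CPM per kb. In libraries labelled KO the lead of Pde5a was within the spread: 26.5 ± 10.8 against 23.4 ± 8.54 for Npr2 in colon, and 22.0 ± 6.04 against 21.4 ± 4.55 for Gucy1b1 in jejunum.

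Of 89 other genes listed for the pathway, 78 were tested. In colon 1 passed, lower, where 0.388% of all genes did, and in jejunum 0 passed, where 0.215% did. The median log2 difference was -0.02 in colon and -0.10 in jejunum. The gene that passed was Pln, phospholamban, the kinase G and kinase A target that restrains the calcium pump of the sarcoplasmic reticulum. It was 41.3, 38.4 and 41.5 CPM in WT colon and 10.0, 2.74 and 3.11 CPM in colon labelled KO. The groups did not overlap, and Pln fell by 2.93 ± 0.43 on the log2 scale (SE; edgeR adjusted p = 0.0240). In jejunum the log2 difference was -0.46 ± 0.39 (SE; adjusted p = 0.654), and the colon change minus the jejunum change was -2.46 ± 0.57 (SE; adjusted p = 0.911). In the colon nuclei Pln was among the leading genes of cluster 0, a smooth muscle-like cluster of 289 WT nuclei and 7 labelled KO. The part of this cluster in the bulk Pln value was not tested.

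Among kinase G and its targets, 18 were tested, 12 were lower in each tissue, and 8 in colon and 5 in jejunum were lower without overlap, against 10.4% and 11.2% of all genes. Without overlap, 1 was higher in colon and 2 in jejunum, against 8.79% and 11.0% of all genes. Hspb6, a small heat shock protein phosphorylated by the cyclic nucleotide kinases, had a log2 difference of -1.57 ± 0.30 in colon (SE; edgeR adjusted p = 0.0568) and -1.17 ± 0.30 in jejunum (SE; adjusted p = 0.134). Prkg2, the other kinase G gene, had a log2 difference of 2.90 ± 0.73 in jejunum (SE; adjusted p = 0.138). Its level there was 24.7, 37.8 and 158 CPM in libraries labelled KO and 8.30 to 11.8 CPM in WT.

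Of 9 ligand and nitric oxide synthase genes, none passed in either tissue. Nos1, the neuronal synthase, had a log2 difference of -0.02 ± 0.30 in colon (SE; adjusted p = 0.989) and of -0.31 ± 0.30 in jejunum (SE; adjusted p = 0.695). The enteric neuron marker list holds Nos1 itself, so it is not separate from the Nos1 value. With Nos1 counted, 8 of 8 enteric neuron markers were lower in jejunum labelled KO (median -0.42, 0 past the test). Their sums were 357 to 450 CPM against 464 to 570 CPM, of which Nos1 was 119 to 148 CPM and 153 to 175 CPM. The part of neuron content in the Nos1 value was not tested. Nppc (C-type natriuretic peptide, the Npr2 ligand) and Nos1ap had the smallest p in colon, with adjusted p = 0.383 and 0.388. Nos2, the inducible synthase, and Nos1ap had them in jejunum, with 0.340 and 0.368. Nppc was at or under 2.91 CPM in every library. Of 6 further cyclases and receptors none passed. Gucy1a2, the other alpha subunit, differed by -0.48 ± 0.22 in colon (SE; adjusted p = 0.351) and Gucy2e by 1.31 ± 0.71 (SE; adjusted p = 0.433). Npr3, the clearance receptor, differed by -0.80 ± 0.28 in jejunum (SE; adjusted p = 0.2502) and Gucy1b2 by -2.09 ± 0.80 (SE; adjusted p = 0.2996).

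Of 17 other phosphodiesterases none passed. The smallest p-values were those of Pde8a (0.58 ± 0.20, SE; adjusted p = 0.231) and Pde8b (0.67 ± 0.29, SE; 0.315) in colon, and of Pde6b (-1.58 ± 0.53, SE; 0.229) and Pde6a (-1.02 ± 0.50, SE; 0.406) in jejunum. Of 24 genes of the cAMP arm none passed. Adrb3, the beta-3 adrenergic receptor, had a lower mean in both tissues, with log2 differences of -1.43 ± 0.45 in colon (SE; adjusted p = 0.188) and -1.36 ± 0.45 in jejunum (SE; adjusted p = 0.225). Ptger2, a prostaglandin E2 receptor, differed by 0.97 ± 0.30 in colon (SE; adjusted p = 0.187), and Adcy4, an adenylyl cyclase, by 1.06 ± 0.40 in jejunum (SE; adjusted p = 0.299). Of 4 genes of cGMP transport and channels none passed. Abcc4 and Abcc5, exporters of cyclic nucleotides, had adjusted p = 0.886 and 0.884 in colon and 0.347 and 0.536 in jejunum.

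The genes most like each member across the 12 bulk libraries were found by Pearson's r of log2 CPM over 14763 genes. These libraries fall into 4 groups, and genes that differ between groups correlate for that alone. They were Tspan12 (0.99) and Dgkb (0.98) for Gucy1b1, Mab21l2 (0.97) and Tnfrsf19 (0.95) for Gucy1a1, and Asb2 (0.97) and Tet1 (0.96) for Prkg1. For Pde5a they were Foxp2 (0.97) and Ctnnal1 (0.96), for Pde3a Twsg1 and Cacnb2 (0.97 each), and for Npr2 Apc2 and Caskin1 (0.98 each). Npr1 had Gabarapl1 (0.96) and Pex5l (0.93), Pde1a had Wdr83 (0.91) and Mtg1 (0.90), and Pde4d had Gripap1 and Kif24 (0.88 each).

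The nuclei show which cells of the colon muscularis hold the transcripts. Of 3476 WT and 2164 barcodes labelled KO, 2613 and 1663 nuclei were kept. The median was 1680 UMIs per nucleus in WT and 1995 in the library labelled KO, and 11 barcodes occurred in both. With 1 library of each label there is no test, and intervals cover counting error only. Nuclear counts include introns, so levels are compared between cell classes and not between genes. Classes were rebuilt from marker genes, and 13 classes were named. The clusters left unnamed were numbers 6, 11, 12, 13, 15 and 21. They held 10.1%, 5.28%, 2.07%, 6.35%, 2.53% and 4.21% of WT nuclei, and 4.45%, 5.83%, 3.31%, 5.11%, 2.04% and 0.962% of nuclei labelled KO.

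Both cyclase subunits were highest in the P2ry1 interstitial fibroblast-like class, cells with Kcnn3, P2ry1 and Adamtsl3, led by Adra1a and Pdgfra, and 3.33% of WT nuclei. Gucy1a1 reached 18.7 UMIs per 10000 there in WT (95% Poisson interval 16.5 to 21.1) and 17.6 in the library labelled KO (13.5 to 22.5). Gucy1b1 reached 8.91 (7.41 to 10.6) and 8.21 (5.50 to 11.8). These 87 WT nuclei held 1.72% of UMIs of the kept WT nuclei but 27.1% of Gucy1a1 UMIs and 19.8% of Gucy1b1 UMIs. Unnamed cluster 12, with 54 WT nuclei of high depth (median 6023 UMIs), held 20.3% of all WT UMIs, 23.6% of Gucy1a1 UMIs and 19.5% of Gucy1b1 UMIs.

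Smooth muscle-like nuclei held far lower levels per UMI, but they are many, and in WT held 13.6% of Gucy1a1 UMIs and 22.1% of Gucy1b1 UMIs with 24.0% of all UMIs. Gucy1a1 was 0.67 per 10000 in WT (0.56 to 0.79) and 0.71 labelled KO (0.57 to 0.86), and Gucy1b1 was 0.71 (0.60 to 0.84) and 0.62 (0.50 to 0.76). A Gucy1a1 UMI was found in 77.0% of WT P2ry1 interstitial fibroblast-like nuclei (67 of 87) and in 13.6% of WT smooth muscle-like nuclei (97 of 715). In WT epithelial-like nuclei, which should lack the gene, it was 3.36% (12 of 357), at median depths of 1263, 2061 and 1420 UMIs. After thinning each nucleus to 500 UMIs the shares were 56.8%, 3.45% and 1.04%.

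Next came interstitial cells of Cajal-like nuclei, with Gucy1a1 at 3.29 (2.37 to 4.45) in WT and 2.64 (1.76 to 3.82) labelled KO, and PDGFRA fibroblast-like nuclei, at 3.05 (2.06 to 4.35) and 4.65 (4.07 to 5.29). In T and B lymphocyte-like nuclei Gucy1b1 had 0 UMIs in both libraries. Enteric glia-like nuclei also held 0 UMIs of Gucy1b1, which allows up to 0.241 per 10000 in WT and 0.526 labelled KO (3 counts). Across the 13 named classes Gucy1a1 was most like Gucy1b1 (r = 0.96), Adamtsl3 (0.95) and Kcnk2 (0.93) among 6999 genes. Adamtsl3 is one of the markers that named the class.

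The synthases lay in other cells. Nos1 was at 12.4 UMIs per 10000 in WT enteric neuron-like nuclei (11.7 to 13.03) and 13.6 labelled KO (12.8 to 14.5), against 0.03 in smooth muscle-like nuclei of each library. Nos1 was left out of the clustering, but it is one of the markers that named the enteric neuron-like class. Its level there is thus not separate from the name. Nos3, the endothelial synthase, was highest in blood endothelial-like nuclei, at 7.16 in WT (32 UMIs in 24 nuclei, 4.90 to 10.1) and 1.46 labelled KO (16 UMIs in 36 nuclei, 0.83 to 2.37).

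**Figure D4:**
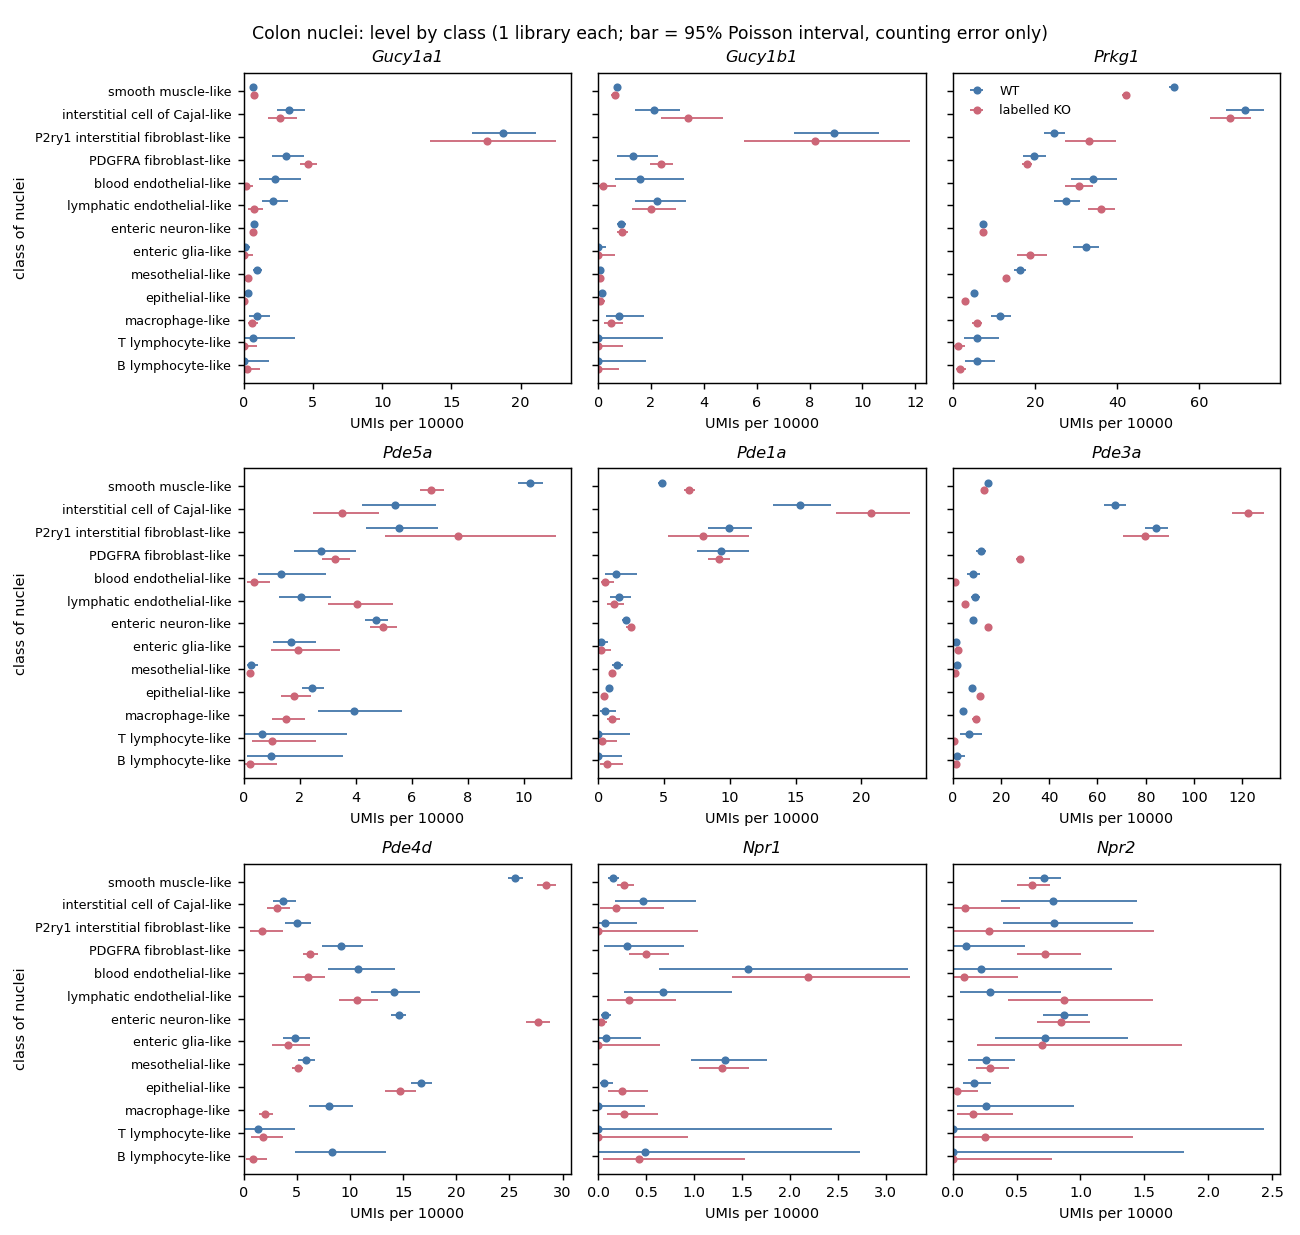
UMIs per 10000 (horizontal axes, linear, each with its own range from 0) of the 9 genes in 13 named classes of colon nuclei (vertical axis), in the WT library and the library labelled KO; bars are 95% Poisson intervals. Gucy1a1 and Gucy1b1 peak in P2ry1 interstitial fibroblast-like nuclei, Pde3a in these and in interstitial cells of Cajal-like nuclei, and Pde5a in WT smooth muscle-like nuclei.

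The kinase and the phosphodiesterases each had a different order of classes. Among named classes Prkg1 was highest in interstitial cells of Cajal-like nuclei, at 71.0 UMIs per 10000 in WT and 67.4 labelled KO, and then in smooth muscle-like nuclei, at 53.7 and 42.1. Unnamed cluster 21 was at 101 in WT and 59.5 labelled KO. Of the smooth muscle-like clusters, 16 and 2 were at 103 and 75.1 in WT. Cluster 16 was named from 5 raised smooth muscle markers, without Myh11, at a mean log2 fold of 1.04 over the list. Its mean over the mural markers was higher, at 1.51, so its name is uncertain. Among named classes of WT, Prkg1 was lowest in epithelial-like nuclei, at 5.13 (4.59 to 5.71). In WT T and B lymphocyte-like nuclei it was 5.95 (2.72 to 11.3) and 5.88 (3.04 to 10.3). Over the classes Prkg1 was most like Pls3 (r = 0.92), Arhgef17 (0.91) and Ppp2r3a (0.91). Pde5a was highest in smooth muscle-like nuclei of WT, at 10.2 (9.77 to 10.7), and these held 48.4% of its WT UMIs.

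Pde3a was high in the same interstitial classes as the cyclase: 84.2 in P2ry1 interstitial fibroblast-like and 67.3 in interstitial cells of Cajal-like nuclei of WT, against 14.5 in smooth muscle-like nuclei. Pde1a was highest in interstitial cells of Cajal-like nuclei, at 15.4 in WT and 20.8 labelled KO. Pde4d had its highest level among named classes in smooth muscle-like nuclei, at 25.5 and 28.5, with 27.6 in enteric neuron-like nuclei labelled KO. Unnamed cluster 21 was above them, at 37.0 in WT and 65.1 labelled KO. Among named classes Npr1 was highest in blood endothelial-like nuclei, at 1.57 in WT (7 UMIs, 0.63 to 3.23) and 2.19 labelled KO, and in mesothelial-like nuclei, at 1.32 and 1.29. Unnamed cluster 11 was at 2.08 (39 UMIs) and 2.20 (35 UMIs). Npr2 was at or under 0.87 in every named class, with enteric neuron-like nuclei at 0.87 and 0.85.

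Between the libraries, Pde5a in smooth muscle-like nuclei was 10.2 per 10000 in WT (1986 UMIs) and 6.70 labelled KO (969 UMIs), a ratio of 0.66 (0.61 to 0.71). Different clusters hold this class in the 2 libraries: cluster 0 had 289 WT nuclei and 7 labelled KO, and cluster 2 had 186 and 184. Within cluster 2 the Pde5a ratio was 0.49 (0.43 to 0.55), from 13.3 to 6.51 per 10000, and within cluster 1 it was 0.62 (0.52 to 0.74). Within cluster 16 it was 0.95 (0.75 to 1.22). In the small number of nuclei labelled KO in cluster 0 (24 UMIs in 7 nuclei) it was 1.46 (0.93 to 2.19). The interval lay below 1 in clusters 1 and 2 and covered 1 in clusters 0 and 16.

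Prkg1 in the same clusters had ratios of 0.86 (0.79 to 0.92) in cluster 1, 0.54 (0.52 to 0.57) in cluster 2 and 0.50 (0.46 to 0.53) in cluster 16. In cluster 0 it was 0.88 (0.68 to 1.12), an interval that covered 1. For the class as a whole it was 0.78. Pde4d went the other way, with 1.88 (1.75 to 2.03) in cluster 1, 1.82 (1.67 to 1.99) in cluster 2 and 1.28 (1.04 to 1.58) in cluster 16. In cluster 0 it was 1.54 (1.23 to 1.91), and the WT level there was 33.1 against 15.4 in cluster 2. The class as a whole, which these clusters fill unequally in the libraries, gave 1.11. Pde3a ratios lay between 0.81 and 1.04 in clusters 1, 2 and 16. Gucy1a1 was at 1.71 (0.99 to 2.95) in cluster 1, 0.95 (0.57 to 1.60) in cluster 2 and 1.42 (0.59 to 4.14) in cluster 16. Gucy1b1 was at 1.07 (0.59 to 1.88), 1.03 (0.64 to 1.68) and 0.82 (0.29 to 2.88). All these intervals covered 1. In cluster 0 Gucy1b1 was at 3.59 (1.13 to 8.79), on 5 UMIs in the 7 nuclei labelled KO. In cluster 16 the WT library held 6 UMIs of Gucy1a1 and 5 of Gucy1b1.

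**Figure D5:**
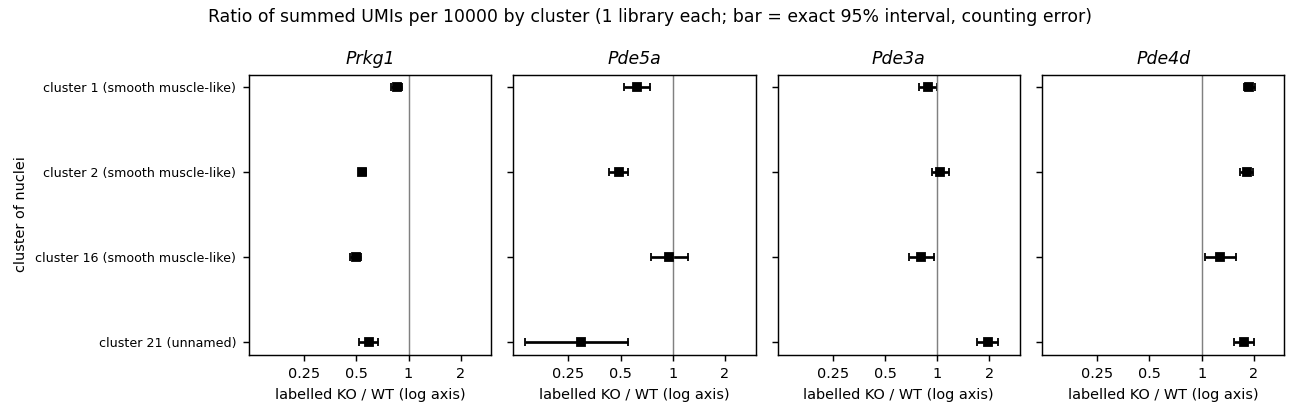
Ratio of UMIs per 10000, library labelled KO over WT (horizontal axes, logarithmic), of 4 genes in 4 clusters (vertical axis); squares are ratios and bars exact 95% intervals for counting error. Pde5a is below 1 in clusters 1, 2 and 21, Prkg1 is below 1 in all 4 clusters, and Pde4d is above 1 in all 4. Cluster 16 is named smooth muscle-like, but its mean fold was higher over the mural markers.

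Outside muscle, the subunits did not differ in P2ry1 interstitial fibroblast-like nuclei beyond counting error, with ratios of 0.94 (0.70 to 1.24) for Gucy1a1 and 0.92 (0.59 to 1.39) for Gucy1b1. That class was 87 nuclei in WT and 19 labelled KO, or 3.33% and 1.14% of nuclei, which is what was recovered in 1 preparation each. In PDGFRA fibroblast-like nuclei the ratios were 1.52 (1.04 to 2.31) for Gucy1a1 and 1.80 (1.01 to 3.47) for Gucy1b1. In interstitial cells of Cajal-like nuclei they were 0.80 (0.48 to 1.33) and 1.60 (0.95 to 2.75). Gucy1a1 was lower in mesothelial-like nuclei, at 0.95 per 10000 in WT (0.65 to 1.33) and 0.33 labelled KO (0.22 to 0.49). Different clusters fill the mesothelial-like class: cluster 9 had 207 WT nuclei and 86 labelled KO, and cluster 26 had 5 and 141. Within cluster 9 the Gucy1a1 ratio was 0.28 (0.07 to 0.80), on 33 UMIs in WT and 4 labelled KO. Pde3a in interstitial cells of Cajal-like nuclei was 67.3 per 10000 in WT and 122 labelled KO, a ratio of 1.82 (1.67 to 1.98). In PDGFRA fibroblast-like nuclei its ratio was 2.39 (1.97 to 2.92) and in enteric neuron-like nuclei 1.71 (1.57 to 1.86). In macrophage-like nuclei it was 2.26 (1.55 to 3.41). Other classes were lower labelled KO: blood endothelial-like at 0.13 (0.06 to 0.26, on 37 and 12 UMIs) and lymphatic endothelial-like at 0.53 (0.38 to 0.74). In mesothelial-like nuclei Pde3a was 1.81 per 10000 in WT and 0.88 labelled KO. In P2ry1 interstitial fibroblast-like nuclei the ratio was 0.94 (0.83 to 1.08). Pde4d in enteric neuron-like nuclei had a ratio of 1.90 (1.78 to 2.02). A pair of clusters made up that class and they differed: the Pde4d ratio was 2.82 (2.60 to 3.07) in cluster 14 (66 WT nuclei and 36 labelled KO) and 0.92 (0.82 to 1.02) in cluster 20 (62 and 35). The Pde3a ratio was 2.16 (1.91 to 2.45) in cluster 14 and 1.37 (1.21 to 1.54) in cluster 20. Prkg1 had ratios of 0.59 (0.47 to 0.73) in enteric glia-like and 0.50 (0.38 to 0.67) in macrophage-like nuclei. It went the other way in lymphatic endothelial-like nuclei, at 1.30 (1.12 to 1.52), and in P2ry1 interstitial fibroblast-like nuclei, at 1.34 (1.08 to 1.66). Of 65 pairs of gene and named class with at least 10 UMIs in each library, 24 had a ratio of at least 1.5 or at most 0.67. Over all genes in the same classes 29.2% of 39372 such pairs did.

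Accessible regions, from the same nuclei, lay within 1000 bases of a start site of 6 of the 9 genes in both libraries: Gucy1b1, Prkg1, Pde5a, Pde3a, Pde4d and Npr1. The share over all genes was not computed, and the 9 genes differ in their number of start sites. The count is therefore a description of these genes alone. Regions were called in each library on its own (35003 in WT and 26493 labelled KO). The printed Pde5a window lay inside a region in both, at chr3:122728586-122729525 in WT and chr3:122728460-122729503 labelled KO. These had a count in 1.80% of WT nuclei (47 of 2613, 95% exact binomial interval 1.32 to 2.38) and 2.22% of those labelled KO (37 of 1663, 1.57 to 3.05). The intervals overlap. At Gucy1b1 the regions at the start site, chr3:82074230-82075056 and chr3:82073849-82074852, had a count in 1.45% and 1.68% of nuclei. A region at Gucy1a1 (chr3:82144830-82145931) was called in the library labelled KO alone, in 1.74% of nuclei. At Prkg1 the WT regions lay at the start site 31765033 of chromosome 19 and the region labelled KO at 31664370, so no values are set side by side. Npr2 and Pde1a had no called region in this window.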

How the data were processed

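Bulk total RNA of 12 libraries came as whole-number read counts per gene, which the authors deposited in 1 table. Per the submitters' processing notes, STAR 2.0.4b, featureCounts 1.4.5, Subread, edgeR and Cell Ranger and the build GRCm38/mm10 were used, with no settings named. The nuclei matrices hold deposited UMI counts per gene and counts per accessible region. All their gene values were even and were halved here.

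The 9 genes and all lists were chosen with earlier results of these data known. Genes named outside the 9 were those with the smallest p of each pathway list in each tissue, up to 2 per list, and others are named where a result turns on them (Nos1, Csrp1).

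Of 40757 entries, 276 repeated identifiers were dropped, and 20886 of 40481 genes passed edgeR's filter on low counts. Total counts ran from 24254905 to 44315104. One edgeR 4.0.16 quasi-likelihood model (R 4.3.3, TMM scaling, robust) held all 12 libraries, with p-values adjusted by Benjamini-Hochberg over all genes tested and a threshold of 0.05. CPM used TMM sizes, and CPM per kb the exonic length. DESeq2 1.42.0, limma 3.58.1 voom, other scalings, filters, a replicate block and leaving out each library were the alternatives. Single ratios used exact two-sided permutation tests. The edgeR fit alone was first tested on simulated data, for the colon comparison.

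Nuclei with at least 500 UMIs, at least 300 genes, at most 10% mitochondrial UMIs and a doublet score under 0.25 (47 WT and 21 labelled KO removed as doublets) were clustered with scanpy 1.11.5 (2000 variable genes, resolution 1.5) without the 9 genes and the pathway lists. The limits on nuclei were chosen after seeing the data. Clusters were named from at least 3 markers. Intervals are exact 95% intervals for counting error.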

Additional observations from a re-analysis of the deposited data

Results flagged for a closer look

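Smooth muscle markers differed in opposite directions in the 2 tissues. Their summed level in every colon library labelled KO was below every WT colon library, with a difference of medians of -21192 CPM, and in every jejunum library labelled KO it was above every WT jejunum library, with 2767 CPM. The difference between these sums was not tested. Csrp1, a LIM-domain protein on the list of kinase G targets, had the same pattern, with differences of medians of -819 CPM in colon and 1446 CPM in jejunum. Csrp1 was 2667, 2958 and 3260 CPM in colon labelled KO against 3340 to 4540 CPM in WT, and 6144, 3069 and 3403 CPM in jejunum labelled KO against 1916 to 2339 CPM in WT. The colon change minus the jejunum change of Csrp1 was -1.41 ± 0.40 on the log2 scale (SE; edgeR adjusted p = 0.941).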

How the results depend on the processing

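Of the 9 genes, 0 passed edgeR's test in colon and in jejunum, while DESeq2 called 2 in each, and leaving out 1 library gave 0 to 1 in colon (1 without colon labelled KO m1) and 0 in jejunum. Between tissues 1 passed in WT and 1 in libraries labelled KO. Scaling by total counts gave 0 in each, with adjusted p of 0.0756 and 0.0836 for Gucy1b1. DESeq2 gave 2 in WT, with Pde1a added, and leaving out 1 library gave 0 to 1 in WT and 0 to 2 in libraries labelled KO, where Npr2 was added without colon t4 (log2 1.01, adjusted p = 0.0338). Tags are shared between tissues, but same-tag correlations of -0.16 to 0.10 gave no ground to take them as pairs, and the replicate block gave 0 in each, with adjusted p of 0.142 and 0.554.

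Over all genes, the calls in colon were 81 by edgeR, 960 by DESeq2, 0 with the 6 colon libraries alone and 7 to 180 leaving out 1 library. In jejunum they were 45, 805, 21 and 2 to 172, with 26 by total counts and 76 by limma voom. The colon minus jejunum change had 0 by edgeR and 37 by DESeq2. Between tissues they were 325 in WT and 270 in libraries labelled KO, 1160 and 1427 by DESeq2, 29 and 3 with the replicate block, and 79 to 557 and 40 to 613 leaving out 1 library.

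Leaving out 1 library, the subunit balance Gucy1a1 to Gucy1b1, KO minus WT in colon, ranged from -0.19 to 0.010 (above 0 without WT colon t7). The subunit balance Gucy1a1 to Gucy1b1, KO minus WT in jejunum, ranged from -0.0732 (without t4 labelled KO) to 0.30, and was -0.011 without t1 labelled KO. Per Myh11 count, an alternative chosen after seeing the data, Gucy1b1 in colon gave 0.020.

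In nuclei, 24 of 65 ratios were past 1.5 or 0.67, and 15 by the share of nuclei after thinning. Pde3a turned direction in macrophage-like nuclei after thinning (0.785) and, with at least 1000 UMIs per nucleus, in lymphatic endothelial-like (1.24) and mesothelial-like nuclei (1.04). Except where a construction names it, the cause was not tested. There were 3 bulk libraries a group and 1 library of nuclei per label, so the comparisons of nuclei have no replicate check.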
